A study of Homo sapiens with 6 samples.

Results

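ER stress and ATF4 response genes were examined as a group of 39 genes, chosen by gene symbol from the 20020 genes of the deposited count table. The list holds factors and regulators of the integrated stress response, enzymes of serine and one-carbon metabolism, amino acid transporters, tRNA synthetases, and the sensors, chaperones and degradation factors of the unfolded protein response. RNA-seq was performed in HCT116, a human colorectal carcinoma cell line, in 6 libraries. The 3 CAD-KO2+IR libraries came from cells that carried the CAD-KO2 guide against caspase-activated DNase (the protein CAD, encoded by the gene DFFB), and the 3 sgVec+IR libraries came from the vector control. All 6 libraries were taken from irradiated cells, 24 h after 8 Gy. Dose, time and guide are not in the sample labels and were taken from the description of the experiment. The knockout was made with lentiCRISPRv2 and is represented by 1 guide in 1 line, and whether that line is a single clone is not given in the sources used here. No unirradiated library was analysed here, so the comparison measures the knockout within irradiated cells and not the response of these genes to irradiation. The labels do not say whether the replicates were separate cultures, so p-values measure only the spread between these samples.

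Stress in the endoplasmic reticulum (ER) is sensed by PERK, IRE1 and ATF6. PERK, together with GCN2 and the other eIF2 alpha kinases, phosphorylates eIF2 alpha, which lowers general translation while the mRNA of the transcription factor ATF4 is translated more. ATF4 then raises genes for amino acid uptake, serine synthesis and tRNA charging, and its partner CHOP (DDIT3) belongs to the prolonged response. IRE1 splices the mRNA of XBP1, and XBP1 and ATF6 raise chaperones and ER-associated degradation. Because ATF4 and XBP1 are controlled largely by translation and splicing, gene-level read counts do not report their activity directly.

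Depth ranged from 14032994 to 19574144 counts per library. DFFB itself was measured at 10.03 to 12.4 CPM (counts scaled to library size) in the knockout libraries and at 20.9 to 22.9 CPM in the controls, so the groups did not overlap. The epithelial markers EPCAM, KRT8, KRT18, KRT19 and CDH1 were all present, and their summed level was 2751 to 3918 CPM with the knockout and 2073 to 4007 CPM in the vector control. In edgeR 1 of these 5 markers reached an unadjusted p under 0.05, against 2.85% of all genes. It was CDH1, at 66.3, 69.8 and 63.9 CPM against 97.6, 99.7 and 93.9 CPM (log2 fold change -0.54, edgeR adjusted p = 0.99994). With limma-voom and sample weights 3 of the 5 did, and CDH1 had a fold change past 1.5 (-0.61, adjusted p = 4.61e-05). The 8 markers of blood, stromal and endothelial cells summed to 25.5 to 39.0 CPM with the knockout and 12.9 to 48.7 CPM in the control, nearly all from COL1A1, and CD3E was at 0 in every library. In bulk libraries fewer cells of a type and less RNA per cell cannot be told apart. Replicate 3 of sgVec+IR and replicate 2 of CAD-KO2+IR stood apart from the rest, with 7561 and 5232 genes at 0 counts against 4577 to 4709 in the other 4 libraries. Results that rest on them are therefore given with and without them.

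Promoter windows of 300 bases (250 before to 50 after 1 RefSeq start per gene, GRCh38.p14) were found for 36 of the 39 genes, all but PSPH, SHMT2 and NUPR1. They were searched on both strands for the elements through which these factors act. For some members, such as ASNS and SLC3A2, the start used lies inside the annotated span of the gene, and other starts were not searched. The C/EBP-ATF response element bound by ATF4, searched as TGATGNAA, occurred in 6 of 36 windows (16.7%, against 2.53% of 15397 windows of all genes), those of ASNS, ATF3, CHAC1, HERPUD1, SLC3A2 and AARS1. The ER stress response element bound by ATF6 with NF-Y, searched as CCAAT and CCACG separated by 9 bases, occurred in 4 of 36 (11.1% against 0.123%), those of HSPA5, HSP90B1, XBP1 and CRELD2. The XBP1 site searched as TGACGTGG occurred in HYOU1 alone (2.78% against 0.844%). No member's window held more than 1 of the 3 kinds of motif. The list was chosen as genes of these pathways, so a share above that of all genes follows from the choice and is not a result. A match is a description of letters and not of binding, and a window without a match says nothing of the factor. The sequences are 1 promoter with the ATF4 element, 2 with the ER stress element, and that of DDIT4, the member with the largest difference between genotypes, in which none of these letters occurred. Capitals mark the matched letters, and each sequence runs 5′ to 3′ on the strand of the gene. The windows are ASNS chr7:97872359-97872658 on the minus strand, HSPA5 chr9:125241294-125241593 on the minus strand, HSP90B1 chr12:103930160-103930459 on the plus strand and DDIT4 chr10:72273674-72273973 on the plus strand.
ASNS: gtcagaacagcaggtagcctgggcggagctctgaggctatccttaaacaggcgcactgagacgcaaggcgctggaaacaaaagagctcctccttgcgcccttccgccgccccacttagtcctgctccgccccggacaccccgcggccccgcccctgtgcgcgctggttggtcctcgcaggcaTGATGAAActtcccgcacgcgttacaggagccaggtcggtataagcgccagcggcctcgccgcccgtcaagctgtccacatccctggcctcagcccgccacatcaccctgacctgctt
HSPA5: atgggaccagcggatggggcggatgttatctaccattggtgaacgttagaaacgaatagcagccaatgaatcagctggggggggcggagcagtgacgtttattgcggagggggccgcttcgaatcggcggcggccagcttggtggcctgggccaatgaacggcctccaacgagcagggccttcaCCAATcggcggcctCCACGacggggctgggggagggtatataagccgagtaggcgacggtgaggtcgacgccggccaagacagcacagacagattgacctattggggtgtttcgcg
HSP90B1: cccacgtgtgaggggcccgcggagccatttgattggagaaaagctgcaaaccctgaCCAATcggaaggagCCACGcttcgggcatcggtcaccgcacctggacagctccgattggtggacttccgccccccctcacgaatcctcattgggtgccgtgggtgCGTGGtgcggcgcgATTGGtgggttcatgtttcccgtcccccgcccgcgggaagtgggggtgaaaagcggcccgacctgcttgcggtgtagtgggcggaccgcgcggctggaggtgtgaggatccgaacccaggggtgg
DDIT4: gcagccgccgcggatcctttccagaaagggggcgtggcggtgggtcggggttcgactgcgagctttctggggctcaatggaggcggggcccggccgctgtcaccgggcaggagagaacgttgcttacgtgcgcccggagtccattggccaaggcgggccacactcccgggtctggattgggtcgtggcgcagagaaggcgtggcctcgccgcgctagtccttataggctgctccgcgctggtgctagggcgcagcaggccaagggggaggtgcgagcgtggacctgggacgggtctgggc

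Over all 6 libraries, as many members were higher as lower. Of the 39 members 38 passed the filter on low counts, 19 were higher and 19 lower in CAD-KO2+IR, and the median log2 fold change was -0.01, the same to 2 decimals as over all 12925 genes tested (-0.01, with 6214 higher and 6711 lower). The split was 26 higher and 12 lower in edgeR without both libraries that stood apart (all genes 6478 and 6581) and 24 higher and 14 lower with limma-voom and sample weights (all genes 6317 and 6608). A gene was called when its adjusted p was under 0.05 with a fold change of at least 1.5. By edgeR's quasi-likelihood test 0 of 38 members were called, against 0.0309% of all genes, and every adjusted p was 0.99994. At an unadjusted p under 0.05, 1 member was lower (DDIT4, against a background of 1.76%) and 0 were higher (background 1.08%). DESeq2 called 0 members (background 0.245%), with 1 at an unadjusted p under 0.05 (background 2.78%). In 3 members (ATF3, STC2 and HSPA5) all CAD-KO2+IR libraries lay above all sgVec+IR libraries, against 5.23% of all genes, and in 0 members all lay below, against 5.01%. Fold changes ran from -0.91 to 0.46 on the log2 scale, 33 of 38 were under 0.3 in size, and for 9 members the 95% interval lay wholly within 1.5-fold in either direction. NUPR1, a stress-induced chromatin protein, had 1 count in 1 sgVec+IR library and 0 in the other 5, and was not tested. A count of 0 allows up to 3 counts, a limit of 0.0540 CPM over the knockout libraries. That limit does not apply to the controls, where 1 count was seen.

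**Figure D1:**
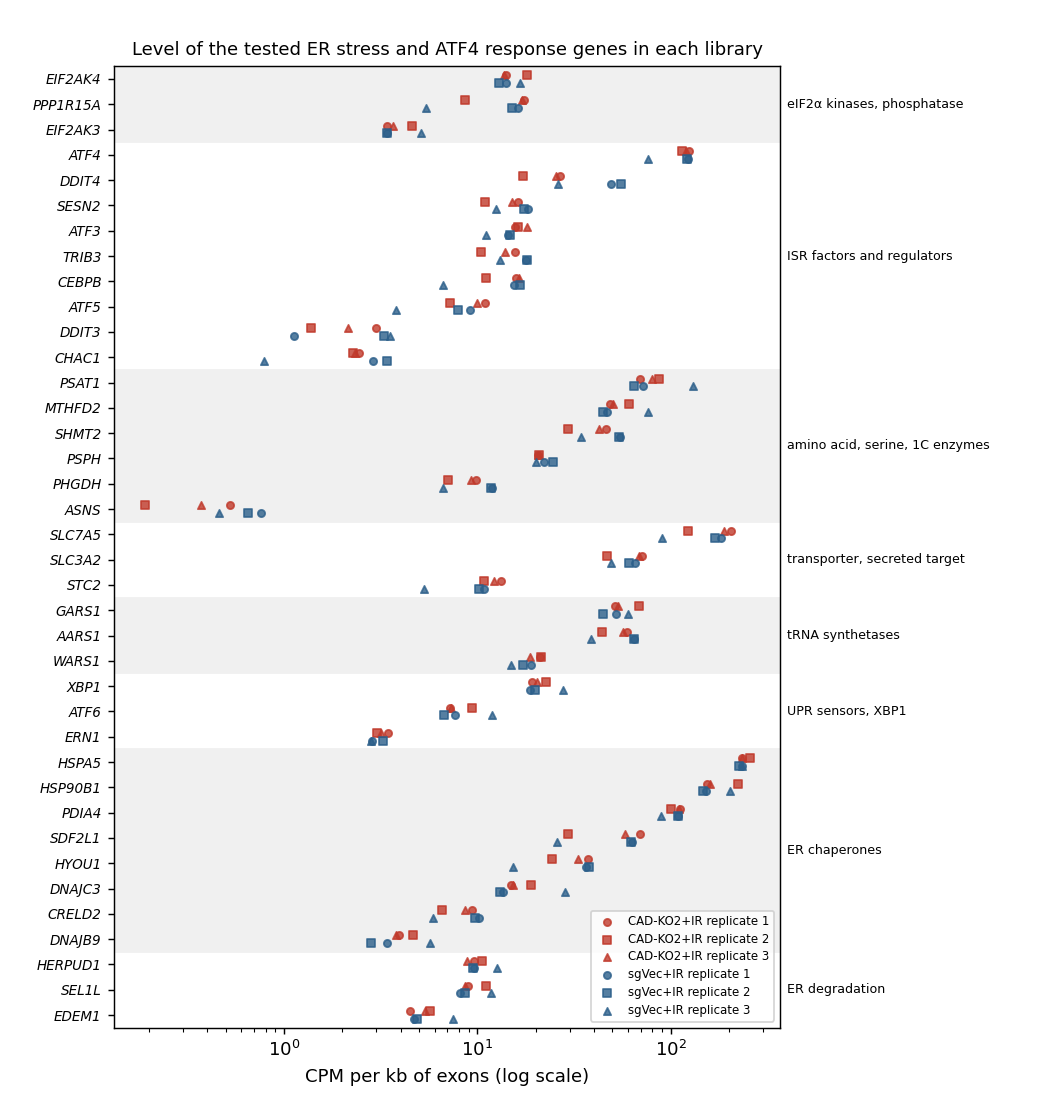
Level of each of the 38 tested members in each library, in CPM per kb of exons on a log axis, grouped by role, with red symbols for CAD-KO2+IR and blue for sgVec+IR. HSPA5 was highest at a mean of 237 CPM per kb and ASNS lowest at 0.490 CPM per kb, and for most members the blue triangle of sgVec+IR replicate 3 lies at one end of the row.

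Per kb of exons, the members spanned a wide range of abundance. HSPA5 (the ER chaperone BiP) was highest at 237 CPM per kb, the 99.4th percentile of the tested genes, followed by HSP90B1 (GRP94) at 173 and the amino acid transporter SLC7A5 at 160.1 CPM per kb. ATF4 mRNA was also abundant, at 113 CPM per kb. The lowest tested members were ASNS (asparagine synthetase) at 0.490, CHAC1 (a glutathione-degrading enzyme) at 2.35 and DDIT3 at 2.40 CPM per kb. CHAC1 and DDIT3 lay at percentiles 28.5 and 28.9 of the tested genes and ASNS at percentile 9.83. The measured levels of these 3 targets of ATF4 were thus low, while ATF4, HSPA5 and SLC7A5 were among the most abundant transcripts. Annotated genes overlap ASNS (2, of which 1 is on the opposite strand) and DDIT3 (4, of which 2 are on the opposite strand), and ASNS has 4 named pseudogenes. CHAC1 has 0 of either. Whether shared reads were left uncounted was not tested.

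None of the 2 kinases and the phosphatase subunit that set eIF2 alpha phosphorylation passed the test. EIF2AK3 (PERK) was at 18.5, 25.0 and 19.8 CPM in CAD-KO2+IR replicates 1, 2 and 3 and at 18.6, 18.6 and 27.7 CPM in sgVec+IR (log2 fold change -0.03, SE 0.244, 95% interval -0.61 to 0.54). EIF2AK4 (GCN2, the sensor of uncharged tRNA) was at 168, 217 and 164 CPM against 168, 154 and 199 CPM (0.08, SE 0.183, interval -0.36 to 0.51). For both genes the values of the groups overlapped, with the highest value of each group in the library that stood apart. PPP1R15A (GADD34, which directs the phosphatase to eIF2 alpha) ranged from 26.8 to 54.0 CPM and from 16.8 to 49.96 CPM (0.23, SE 0.448, interval -0.83 to 1.29).

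Among the transcription factors, ATF4 was at 313, 289 and 303 CPM in CAD-KO2+IR and at 309, 304 and 192 CPM in sgVec+IR. Only sgVec+IR replicate 3 was low, and the other 5 libraries lay close together (log2 fold change 0.17, SE 0.207, interval -0.32 to 0.66). Without both libraries that stood apart the log2 fold change of ATF4 was 0.01. DDIT3 (CHOP) was at 3.902, 1.79 and 2.79 CPM against 1.47, 4.31 and 4.58 CPM, with fully overlapping groups (-0.27, SE 0.502), and its interval of -1.46 to 0.92 shows how little its low counts resolve. ATF3, a factor induced by many stresses, was at 63.0, 65.3 and 73.0 CPM against 58.5, 59.6 and 44.8 CPM. Its groups did not overlap, at 67.1 ± 5.23 against 54.3 ± 8.27 CPM (SD, n = 3 each), but the difference did not pass the test (0.30, SE 0.183, edgeR adjusted p = 0.99994). ATF5 was at 32.4, 21.4 and 29.5 CPM against 27.1, 23.5 and 11.1 CPM, with overlap (0.42, SE 0.347), and the value was 0.13 without sgVec+IR replicate 3 and 0.68 without sgVec+IR replicate 1. CEBPB, a bZIP partner of ATF4, ranged from 21.6 to 32.0 CPM and from 13.0 to 32.4 CPM.

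**Figure D2:**
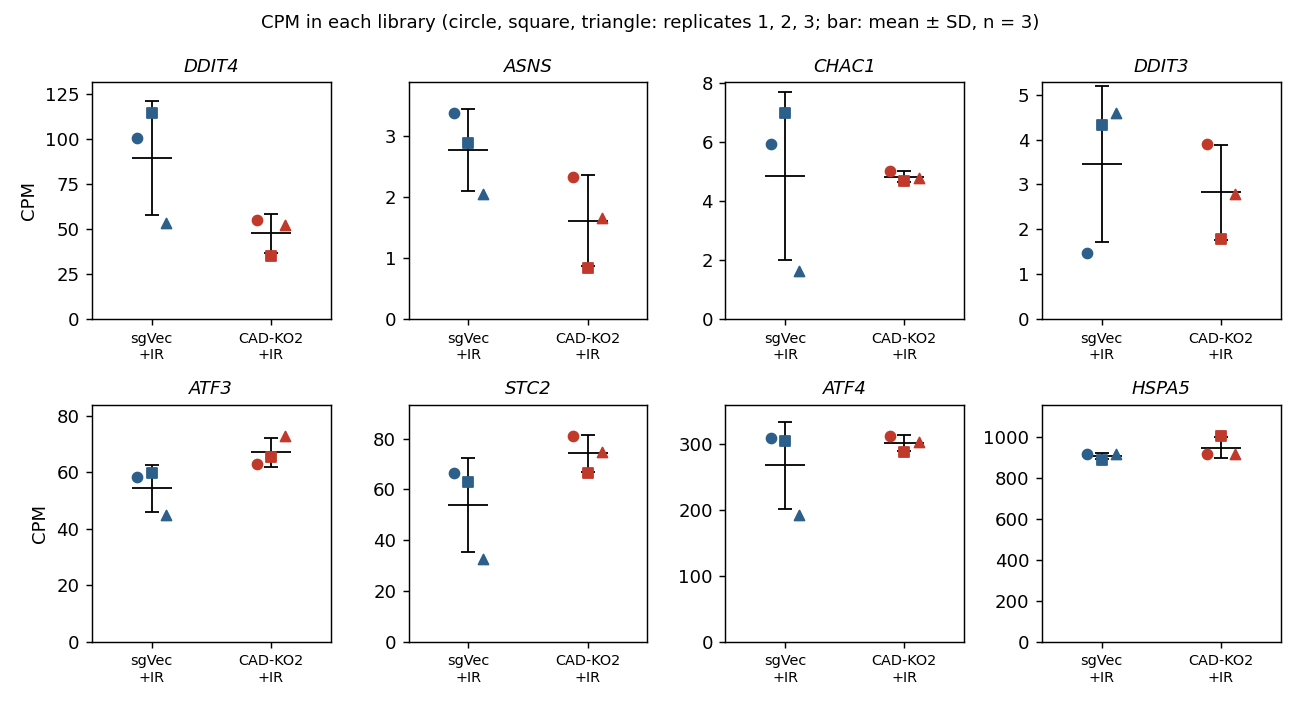
CPM of 8 members in each library, with sgVec+IR in blue, CAD-KO2+IR in red, one symbol per replicate and bars for the mean ± SD (n = 3). DDIT4 was at 53.7 to 114 CPM in sgVec+IR and 35.3 to 55.3 CPM in CAD-KO2+IR, whereas HSPA5 lay between 887 and 1005 CPM in all 6 libraries.

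DDIT4 (REDD1, a stress-induced inhibitor of mTORC1, on chromosome 10 from 72273924 to 72276036 of GRCh38) showed the largest difference. It was at 55.3, 35.3 and 52.5 CPM in CAD-KO2+IR and at 100.6, 114 and 53.7 CPM in sgVec+IR, or 47.7 ± 10.8 against 89.6 ± 31.8 CPM (SD, n = 3 each). The groups met at one point, since the lowest sgVec+IR library (replicate 3) lay just under the highest CAD-KO2+IR library. The fold was 0.532, a log2 fold change of -0.91 (SE 0.322, 95% interval -1.67 to -0.15), with an unadjusted p of 0.0258 and an adjusted p of 0.99994 in edgeR across the table. The direction was the same in all 14 alternatives, from -1.17 to -0.69, while the call was not. DDIT4 passed the threshold with limma-voom and sample weights (-1.02, adjusted p = 1.19e-05), with a GC trend as offset in edgeR (-0.90, adjusted p = 0.0122) and in edgeR without both libraries that stood apart (-0.99, adjusted p = 1.18e-14). These settings called 5.15%, 0.317% and 3.37% of all genes. The last 2 were chosen after seeing the data. Leaving out both libraries leaves 2 in each group and takes out sgVec+IR replicate 3, the control that met the knockout values. The weighted limma-voom fit sets that library nearly aside too, at a weight of 0.0404 estimated from these data, so these 2 settings are not separate support. Without sgVec+IR replicate 3 alone, edgeR gave -1.17 with an unadjusted p of 0.000491 and an adjusted p of 0.140. An overlapping gene is annotated on the opposite strand of DDIT4, and whether the counting used strand is not given in the sources used here.

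The other regulators in this branch lay nearer to equal. TRIB3, a pseudokinase that binds ATF4, was at 53.6, 36.0 and 47.9 CPM against 61.3, 61.7 and 44.8 CPM (-0.29, SE 0.226). SESN2, a leucine sensor upstream of mTORC1, was at 55.7, 38.0 and 52.3 CPM against 62.9, 59.9 and 43.0 CPM (-0.18, SE 0.233). In both, the 2 sgVec+IR libraries other than replicate 3 were above all CAD-KO2+IR libraries. Without both libraries that stood apart the log2 fold changes were -0.27 for TRIB3 and -0.18 for SESN2. CHAC1 was at 5.04, 4.69 and 4.78 CPM against 5.93, 6.98 and 1.62 CPM (-0.01, SE 0.462), a difference near 0 that turned to -0.38 without both libraries that stood apart and to 0.11 with the GC trend as offset.

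All 6 enzymes of amino acid, serine and one-carbon metabolism were lower in CAD-KO2+IR (median log2 fold change -0.20, range -0.79 to -0.07), and none of the 6 passed edgeR's test or reached an unadjusted p under 0.05. ASNS was at 2.33, 0.844 and 1.65 CPM against 3.36, 2.88 and 2.05 CPM, overlapping only through 1 library in each group (-0.79, SE 0.446, interval -1.85 to 0.26). PHGDH, which opens serine synthesis, was at 90.9, 65.2 and 85.8 CPM against 109, 109 and 61.5 CPM (-0.21, SE 0.267). SHMT2, the mitochondrial serine hydroxymethyltransferase, was at 223, 143 and 206 CPM against 263, 263 and 165 CPM (-0.27, SE 0.254). For PHGDH and SHMT2, sgVec+IR replicates 1 and 2 were the highest of the 6 libraries.

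PSAT1, the next enzyme after PHGDH, was at 151, 192 and 175 CPM against 157, 142 and 287 CPM (-0.18, SE 0.287), and MTHFD2, of mitochondrial folate metabolism, was at 236, 297 and 245 CPM against 228, 217 and 372 CPM (-0.07, SE 0.242). Here sgVec+IR replicate 3 was the highest library. Without both libraries that stood apart the log2 fold changes were 0.13 for PSAT1 and 0.12 for MTHFD2, so the shared direction of the 6 enzymes did not hold. In that fit the other enzymes stayed lower, at -0.64 for ASNS, -0.30 for PHGDH, -0.29 for SHMT2 and -0.17 for PSPH. Of the 6, only PHGDH and SHMT2 had an edgeR adjusted p under 0.05 there, in a setting chosen after seeing the data. PSPH, which completes serine synthesis, differed by -0.10 (SE 0.159). Pseudogenes named after the gene are annotated for ASNS, PSAT1, PSPH, MTHFD2, SLC7A5, ATF4 and XBP1. Reads shared with them would make these 7 values less certain, but sharing was not tested. The search was by gene name, so pseudogenes under other names were not looked for.

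The amino acid transporter and the secreted target lay on the other side. SLC7A5 (LAT1) and SLC3A2, its heavy chain, differed by 0.23 (SE 0.308) and 0.08 (SE 0.208). STC2, a secreted glycoprotein induced by ATF4, was at 81.1, 66.5 and 74.9 CPM against 66.3, 62.7 and 32.5 CPM, the largest positive difference (0.46, SE 0.283, interval -0.21 to 1.13). Its groups were separated by a narrow gap, and without both libraries that stood apart the value was 0.28. Of the 3 tRNA synthetases, WARS1 was at 134, 136 and 118 CPM against 119.9, 109.7 and 94.998 CPM (0.26, SE 0.162), GARS1 differed by 0.15 and AARS1 by -0.07.

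The sensors of the unfolded protein response and XBP1 were nearly level. ERN1 (IRE1 alpha) was at 37.4, 32.7 and 34.6 CPM against 30.8, 35.3 and 30.7 CPM (0.11, SE 0.170), and ATF6 was at 56.7, 73.9 and 57.7 CPM against 60.2, 52.8 and 93.9 CPM (-0.13, SE 0.259). XBP1 was at 58.2, 69.0 and 61.5 CPM against 56.7, 60.1 and 83.8 CPM (-0.09, SE 0.205). The groups overlapped for all 3 genes, and counts per gene do not separate spliced from unspliced XBP1.

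None of the 8 ER chaperones and folding factors passed the test. HSPA5, with the smallest SE of all members, was at 917, 1005 and 917 CPM in CAD-KO2+IR and at 917, 887 and 913 CPM in sgVec+IR, so the groups were separated by less than 1 CPM (0.06, SE 0.114, interval -0.21 to 0.33). PDIA4, a protein disulfide isomerase, and HSP90B1 differed by 0.07 (interval -0.28 to 0.42) and 0.10 (interval -0.39 to 0.59). Of these 8 genes, 6 were higher and 2 lower, with a range of -0.17 to 0.10 and a median of 0.06. The widest intervals were those of SDF2L1 (-0.97 to 1.06) and HYOU1 (-0.76 to 0.92). The 3 genes of ER-associated degradation, HERPUD1, SEL1L and EDEM1, differed by -0.13, 0.00261 and -0.13. The 4 members with an ER stress response element differed by 0.06 (HSPA5), 0.10 (HSP90B1), -0.09 (XBP1) and -0.07 (CRELD2), and the 6 with a C/EBP-ATF response element ranged from -0.79 (ASNS) to 0.30 (ATF3).

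**Figure D3:**
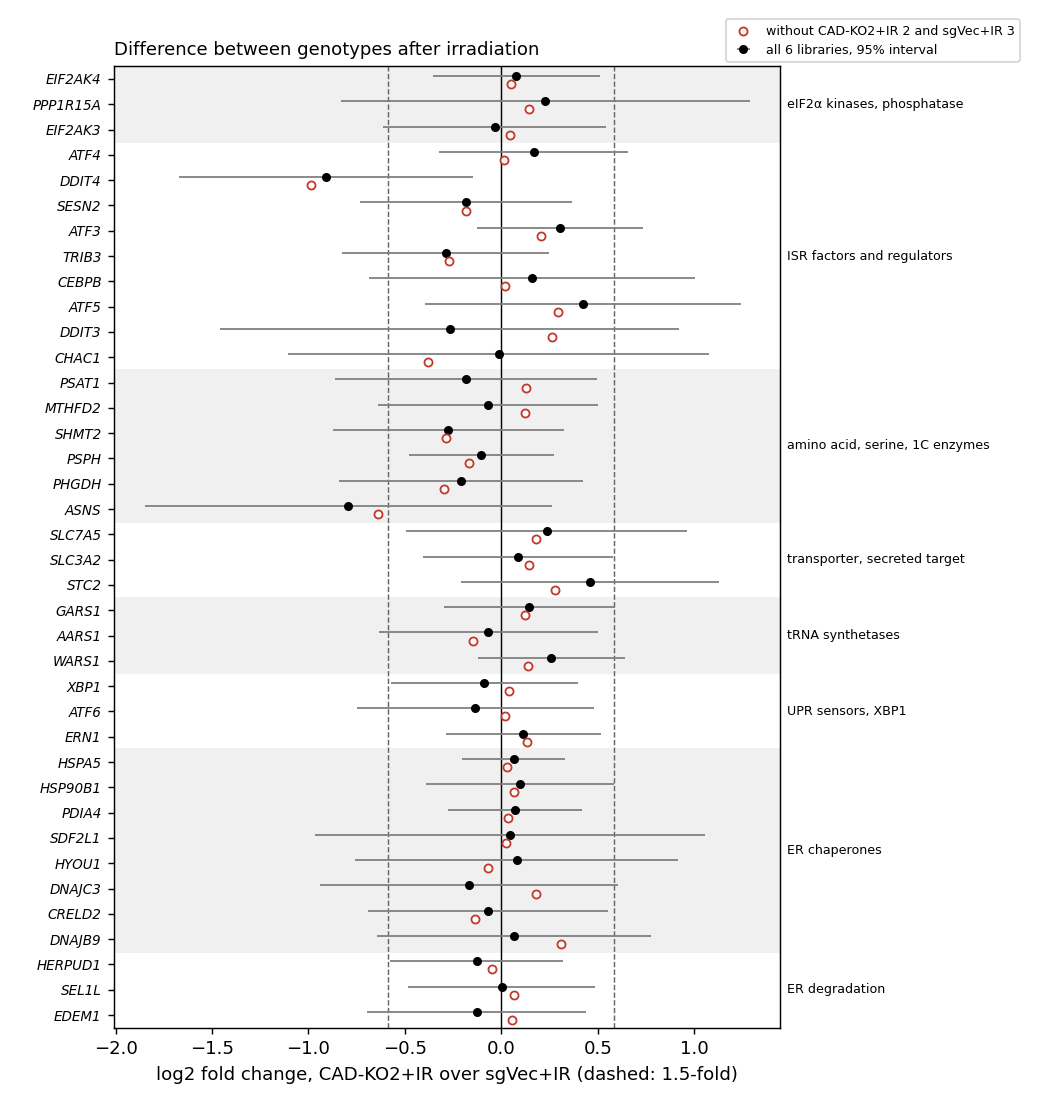
Log2 fold change of CAD-KO2+IR over sgVec+IR for the 38 tested members by role, with black points and 95% intervals from edgeR over all 6 libraries and open red circles for the fit without CAD-KO2+IR replicate 2 and sgVec+IR replicate 3. DDIT4 is the only member whose interval (-1.67 to -0.15) lies wholly on one side of 0.

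The members' spread within a group followed the GC content of their transcripts. In sgVec+IR replicate 3, 17 of 38 members were at their lowest and 11 at their highest of the 6 libraries, or 73.7% at an extreme, against 75.5% of all genes tested. The 19 members with the lower GC content (39.4% to 50.8%) deviated upward in this library in 15 cases, with a median of 0.48 in log2 CPM from replicates 1 and 2. All 19 with the higher GC content (51.7% to 66.2%) deviated downward, with a median of -0.83. CAD-KO2+IR replicate 2 showed the same split, with 15 of 19 up (median 0.24) and 18 of 19 down (median -0.50). Across the 38 genes, Pearson's r between GC content and deviation was -0.87 for sgVec+IR replicate 3 and -0.73 for CAD-KO2+IR replicate 2, against -0.62 and -0.77 over 12913 genes. The genes share the same libraries and are not independent, so these r are descriptions. GC content and the log2 fold change over all 6 libraries had an r of 0.10 across the members. For the difference between genotypes over the other 4 libraries r was -0.29, against -0.31 over 12913 genes, so leaving out both libraries did not remove the relation to GC content.

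**Figure D4:**
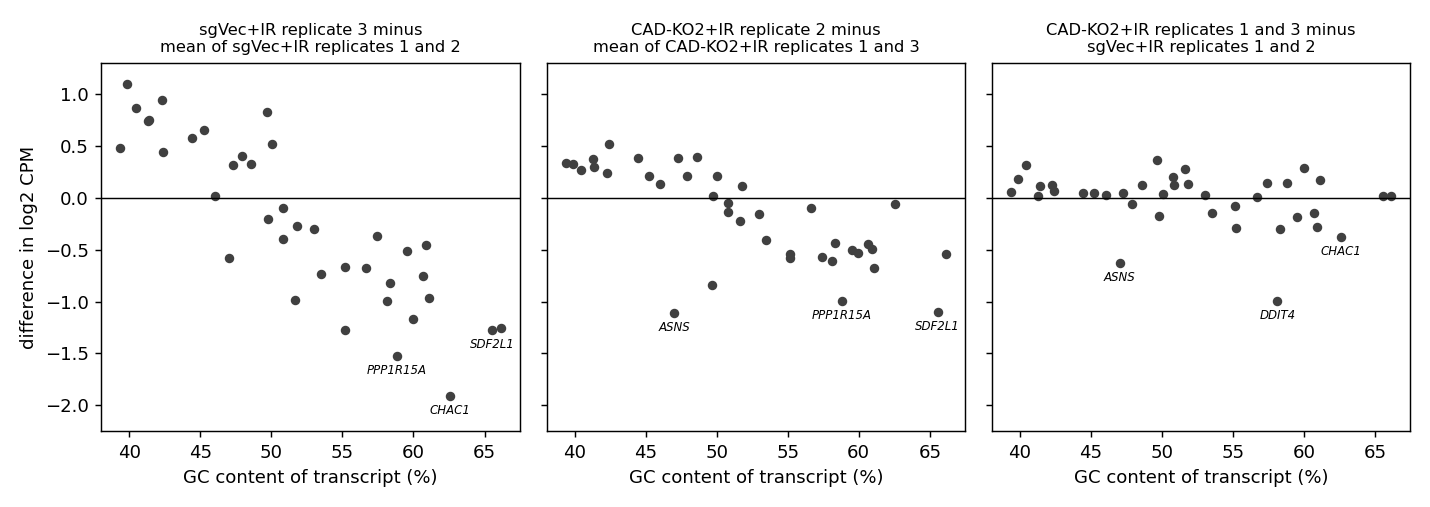
Difference in log2 CPM against the GC content of the transcript (%) for the 38 members, for sgVec+IR replicate 3 against the other sgVec+IR libraries, CAD-KO2+IR replicate 2 against the other CAD-KO2+IR libraries, and the other 4 libraries between genotypes. The correlation with GC content is strong in the first panel (r = -0.87) and second panel (r = -0.73) and weaker in the third (r = -0.29), where DDIT4 and ASNS lie lowest.

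Because both groups held such a library, the comparison was repeated with them weighted down or left out. With limma-voom and sample weights, the estimated weights being 0.0404 for replicate 3 of sgVec+IR and 0.154 for replicate 2 of CAD-KO2+IR, 2 members were called, DDIT4 (-1.02) and ASNS (-0.82, adjusted p = 0.0224), both lower, against 3.51% of all genes. Calls in either direction made up 5.15% of all genes. At an adjusted p under 0.05 of any size, limma-voom gave 9 of 38 members (23.7%), near the 22.3% of all genes. Of these, ATF3 and STC2 were higher and DDIT4, ASNS, TRIB3, SESN2, PHGDH, SHMT2 and AARS1 lower. At an unadjusted p under 0.05 it gave 17 members, against 37.1% of all genes. In edgeR without sgVec+IR replicate 3, 4 members were lower at an unadjusted p under 0.05 (DDIT4, ASNS, PHGDH and SHMT2), against 6.67% of all genes.

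In edgeR without both libraries, DDIT4 was the 1 member called, against 3.37% of all genes, and 16 of 38 reached an unadjusted p under 0.05 (42.1% against 29.7%). These 16 were 8 higher and 8 lower. Besides DDIT4, an edgeR adjusted p under 0.05 with a smaller fold change was reached by SHMT2 (-0.29, 0.000318), PHGDH (-0.30, 0.00166) and TRIB3 (-0.27, 0.0175), all lower. STC2 (0.28, 0.00819) and SLC7A5 (0.18, 0.0126) reached it and were higher. The share of all genes at that threshold was not taken for this fit. With 2 libraries left in each group, the small spread behind these values rests on few degrees of freedom. With the GC trend as offset and all 6 libraries, DDIT4 was again the 1 member called (background 0.317%), and 8 members reached an unadjusted p under 0.05 (21.1% against 10.5%).

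In the wider pathway, edgeR called 0 genes in each of 4 lists. Of 27 other ATF4 and amino acid response genes 25 were tested, with 7 higher and 18 lower and a median log2 fold change of -0.14. Of these 25, 2 reached an unadjusted p under 0.05 in edgeR, both lower, against 1.76% of all genes. KLHL24, a ubiquitin ligase adaptor, was at 15.01, 21.1 and 14.9 CPM against 24.1, 32.0 and 40.1 CPM (-0.91, SE 0.264, unadjusted p = 0.0107 and adjusted p = 0.99994 in edgeR), and CTH, which makes cysteine from cystathionine, was at 10.1, 10.1 and 11.2 CPM against 12.7, 15.7 and 18.2 CPM (-0.57, SE 0.218, unadjusted p = 0.0345 and adjusted p = 0.99994 in edgeR). For both genes the groups did not overlap. In the list 3 genes lay wholly lower, against 5.01% of all genes, and 1 wholly higher, against 5.23%. DESeq2 called 0 of this list, with 2 at an unadjusted p under 0.05 (background 2.78%). Limma-voom with sample weights called 2, against 5.15% of all genes, KLHL24 (-0.88, adjusted p = 0.000729) and GDF15, a secreted stress cytokine (-0.67, adjusted p = 8.02e-05). At an unadjusted p under 0.05 limma-voom gave 13 of the 25 genes, against 37.1% of all genes. The 17 other cytosolic tRNA synthetases had 12 higher and 5 lower (median 0.06), the 32 tested of 33 other ER chaperone and degradation genes 20 higher and 12 lower (median 0.04), and 15 genes for eIF2, its other kinases, its exchange factor and other proteins that act on or upstream of eIF2 alpha phosphorylation (GCN1, PPP1R15B, DELE1, OMA1 and IMPACT) 14 higher and 1 lower (median 0.08, largest 0.35). In these 3 lists 0 genes reached an unadjusted p under 0.05 in edgeR or DESeq2, and limma-voom called 0, with 6, 8 and 8 genes at an unadjusted p under 0.05, against 37.1% of all genes. Wholly higher were 2, 0 and 3 genes, against 5.23% of all genes, and wholly lower were 0 in each list, against 5.01%.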

How the data were processed

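RNA-seq was analysed in 6 libraries of irradiated HCT116 cells, 3 CAD-KO2+IR and 3 sgVec+IR, grouped by sample title. Reads were trimmed by the authors in fastp and assigned to genes in featureCounts, and the deposited values are raw counts with no normalization. The aligner, annotation and strand setting are not given in the sources used here. The submitters' processing notes list the build mm10, although the gene identifiers are human, and the labels list the molecule as genomic DNA although the study describes RNA.

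Genes were filtered with filterByExpr (minimum count 10, minimum total 15), which left 12925 of 20020. Libraries were scaled by TMM and compared with edgeR's quasi-likelihood test (edgeR 4.0.16, R 4.3.3, legacy set to FALSE), with Benjamini-Hochberg adjustment over all genes tested. The study used DESeq2, which was run as an alternative (1.42.0), as were limma-voom with sample weights (limma 3.58.1), RLE scaling, no filter, the legacy fit, a replicate block and each library left out. Leaving out both libraries that stood apart and an offset for GC content (lowess, span 0.3) were chosen after seeing the data. The code was run on simulated counts with changes larger than those of the members, no GC trend and no library that stood apart. That run therefore does not test the GC offset, the sample weights or the power for small differences. CPM are per TMM-scaled library size. Exon length and GC content came from GENCODE release 29, which covered all 39 genes, and promoter windows and sequences from RefSeq. Positions are on GRCh38 and are linked to the counts by gene identity only. Opposite-strand genes overlap 19 of the 39. The libraries carry no stated molecular identifiers, so limits derived from counts cover counting error only.

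The genes and lists were chosen with earlier results of these data known. Values in each library are given for 18 fixed genes, for members with an unadjusted p under 0.05 in edgeR, for the 4 members with the largest differences in each direction and for members whose groups did not overlap, and the other members by range or fold change. From the wider lists only genes at an unadjusted p under 0.05 in edgeR are given, and GDF15 was named after its values were seen. The deviations of same-numbered libraries had an r of 0.468 for replicate 1, -0.545 for replicate 2 and -0.379 for replicate 3, so the numbers were not taken to pair the libraries.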

Additional observations from a re-analysis of the deposited data

How the results depend on the processing

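The 14 alternatives left the sign of 14 of the 38 tested genes unchanged, DDIT4 among them, while 24 changed sign in at least 1. The number of genes called was 0 in edgeR and with DESeq2, RLE scaling, no filter, the legacy fit, the replicate block and any 1 library left out, 2 with limma-voom and sample weights, 1 without both libraries that stood apart and 1 with the GC trend as offset. The number at an unadjusted p under 0.05 was 1 in edgeR, 17 with limma-voom, 16 without both libraries, 8 with the GC trend and 0 with the replicate block, and 0 to 4 with 1 library left out (4 without replicate 3 of sgVec+IR, and 0 without replicate 1 or 2 of sgVec+IR or without replicate 2 of CAD-KO2+IR). The median log2 fold change was 0.045 with limma-voom. The replicate block gave DDIT4 -0.87 and changed no call, and the numbers mark no stated pairing. Log2 fold changes that turned sign were ATF4 -0.0040, DDIT3 0.29, PSAT1 0.17, MTHFD2 0.13, XBP1 0.061, EDEM1 0.12, EIF2AK3 0.072, ATF6 0.025, HYOU1 -0.13, SDF2L1 -0.074 and DNAJC3 0.18 with limma-voom, DDIT3 0.26, PSAT1 0.13, MTHFD2 0.12, XBP1 0.041, EDEM1 0.055, EIF2AK3 0.046, ATF6 0.020, HYOU1 -0.069 and DNAJC3 0.18 without both libraries, CHAC1 0.0036 with DESeq2, CHAC1 0.078 with the replicate block, CHAC1 0.11 with the GC trend and SEL1L -0.0024 with RLE scaling. With 1 library left out, 23 genes turned sign, with ranges of AARS1 -0.27 to 0.058, ATF4 -0.022 to 0.28, ATF6 -0.29 to 0.15, CEBPB -0.15 to 0.38, CHAC1 -0.41 to 0.33, CRELD2 -0.28 to 0.076, DNAJB9 -0.12 to 0.41, DNAJC3 -0.35 to 0.30, EDEM1 -0.24 to 0.12, EIF2AK3 -0.18 to 0.19, EIF2AK4 -0.064 to 0.19, HERPUD1 -0.20 to 0.020, HSP90B1 -0.10 to 0.26, HYOU1 -0.23 to 0.29, MTHFD2 -0.20 to 0.23, PDIA4 -0.020 to 0.13, PPP1R15A -0.12 to 0.49, PSAT1 -0.36 to 0.21, SDF2L1 -0.27 to 0.33, SEL1L -0.12 to 0.18, SLC3A2 -0.027 to 0.25, SLC7A5 -0.020 to 0.43 and XBP1 -0.19 to 0.11. The other 15 kept their sign, with ranges of ASNS -1.15 to -0.48, ATF3 0.19 to 0.38, ATF5 0.13 to 0.68, DDIT3 -0.65 to -0.0036, DDIT4 -1.17 to -0.69, ERN1 0.076 to 0.19, GARS1 0.0032 to 0.26, HSPA5 0.018 to 0.10, PHGDH -0.44 to -0.077, PSPH -0.17 to -0.021, SESN2 -0.33 to -0.033, SHMT2 -0.46 to -0.10, STC2 0.20 to 0.64, TRIB3 -0.42 to -0.14 and WARS1 0.18 to 0.34. The cause was not tested. With 3 libraries in a group and a median SE of 0.24 on the log2 scale, small differences were not detectable, and the largest SE were those of DDIT3 (0.502), CHAC1 (0.462), PPP1R15A (0.448) and ASNS (0.446).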
